A study of Homo sapiens and Mus musculus with 8 samples.

Results

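The genes described here encode the proteasome and its dedicated helpers. They were taken from 3 tables of the authors' comparisons for B16N, a mouse melanoma cell line, as every symbol that starts with Psm, one letter from a to g and a digit. This gave 45 genes of 15966 in all, and each of the 45 had a row in all 3 tables. Each table sets 1 sample beside the same untreated wild-type B16N sample of day 0. The samples set beside it were wild-type B16N exposed to UV for 2 weeks, wild-type B16N exposed to UV for 5 weeks, and a day 0 B16N clone labelled as overexpressing Orai1, a gene whose own change was not analysed here. The clone was made by transfection of wild-type Orai1 fused to the fluorescent protein CFP, G418 selection, cell sorting and growth as individual clones, per the labels' protocols, and it is 1 clone. RNA-seq of total RNA was done on 1 sample per group, so no change below has a replicate check, and each test compares libraries and not conditions. The effect of UV and that of weeks in culture cannot be told apart, and transfection, selection and cloning cannot be told apart from Orai1 itself. The human lines of the series, WM983 and UACC257, were not analysed here for these genes.

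The proteasome is the large protease that degrades ubiquitin-tagged proteins. Its 20S core is a barrel of outer alpha rings and inner beta rings, and the beta subunits encoded by Psmb5, Psmb6 and Psmb7 carry the proteolytic sites. The 19S regulatory particle caps the barrel: its ATPases (Psmc genes) unfold substrates, and its non-ATPase subunits (most Psmd genes) bind ubiquitin, remove it and hold the particle together. In cells exposed to interferon, Psmb9, Psmb10 and Psmb8 replace the catalytic beta subunits to form the immunoproteasome, and the PA28 activator (Psme1 and Psme2) can take the place of the 19S cap, which favours peptides for antigen presentation. Because the particle needs its subunits in fixed proportions, their genes are often controlled together, with the transcription factor NFE2L1 (encoded by Nfe2l1) raising them when proteasome activity is short.

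Values are the authors' log2 fold changes with the sign turned, so that positive means higher in the treated sample. No file header states the direction; it was judged from genes listed in a single table, and every higher and lower below rests on it. The standard error (SE) is the one the deposited statistic implies. A gene passed where the deposited p-value, Benjamini-Hochberg adjusted over the whole table, was under 0.05. The tables hold neither counts nor levels, so depth is unknown. A shift in all cells and a shift in a share of the cells cannot be told apart. Of the 45 genes, 14 shared their exact values with another symbol in at least 1 table (31.1%), close to the share of all rows that did so (28.9% at 2 weeks, 29.3% at 5 weeks and 29.1% in the clone). A gene was left out of the counts of each table in which it shared its values, and these genes are described separately. Psme2 shared its values at both UV times but not in the clone, so 30 genes were counted at each UV time and 31 in the clone. Left out of the counts too are 2 genes that fit the symbol pattern without encoding a part of the proteasome: Psmc3ip, a meiotic recombination factor that is also among the 14, and Psme3ip1, a partner of the PA28 gamma activator. The immunoproteasome genes Psmb8 and Psmb9 and the subunit genes Psma4 and Psmd3 were not analysed here. All 7 melanocyte lineage markers looked up (Mlana, Pmel, Tyr, Tyrp1, Dct, Mitf and Sox10) had a row in each table, but without levels their presence in the line could not be judged. Of the 6 with values of their own, 4 were higher at 2 weeks (median change 0.54), 5 were higher at 5 weeks (median 0.67), and 2 were higher and 1 lower in the clone (median 0.28). Sox10, the marker left out of these counts, shared its values. Before the sign was turned it stood at -0.02 at 2 weeks, 0.60 at 5 weeks and 0.24 in the clone. With the sign turned, Sox10 thus lay below 0 at 5 weeks and in the clone, against most of the other markers. Of all rows with values of their own, 3.71% were higher at 2 weeks, 3.53% at 5 weeks and 12.0% in the clone, where 13.9% were lower. Tyr, the tyrosinase gene, had the largest of the marker changes at 2 weeks, 0.95 (SE 0.10), in the authors' deposited table, above every proteasome gene change that passed then. The part of these changes in the results below was not tested. Of 12 markers of other cell types, Lyz2 alone had values of its own. It stood at 0.38 (SE 0.94) at 2 weeks, 3.47 (SE 0.70) at 5 weeks and 2.78 (SE 0.64) in the clone in the authors' deposited tables, and its part in any result below was not tested.

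After 2 weeks of UV, 4 of 30 proteasome genes with values of their own were higher and 0 were lower (13.3% higher). Across all rows with values of their own, 3.71% were higher and 5.28% lower. The 4 genes were Psma7, Psmd8, Psmd9 and Psmg4, which come from 4 different parts of the system: the alpha ring, the 19S lid and the chaperones that assemble each particle. None of these 4 changes was as large as 1.5-fold, and with that minimum the count was 0. The median log2 change of the 30 genes was 0.10, beside 0.02 for all such rows. Of the 26 genes that did not pass, 23 had a 95% interval that lay within a 2-fold change either way.

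After 5 weeks of UV, 1 of 30 proteasome genes was higher, the 19S lid gene Psmd6, and 0 were lower. The share higher was 3.33%, where 3.53% of all such rows were higher and 1.98% lower, so the count is at the background of the table. The median change was 0.08, beside 0.01 for all such rows. Of the 29 genes that did not pass, 24 had an interval within a 2-fold change either way and 18 had one within 0.5 on the log2 scale.

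In the Orai1 clone, 5 of 31 proteasome genes were higher and 0 were lower. The higher genes were Psmb6 of the catalytic core, the 19S ATPase gene Psmc4, the 19S genes Psmd4 and Psmd6, and the PA28 gene Psme1. Their changes lay between 1.53-fold for Psme1 and 1.82-fold for Psmd6 in the authors' deposited table. The clone differed from control in many genes: 12.0% of all such rows were higher and 13.9% lower. The 16.1% of proteasome genes that were higher is therefore near the background. The median change was 0.11, beside 0.03 for all such rows, and 19 of the 26 genes that did not pass had an interval within 0.5 on the log2 scale.

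**Figure D1:**
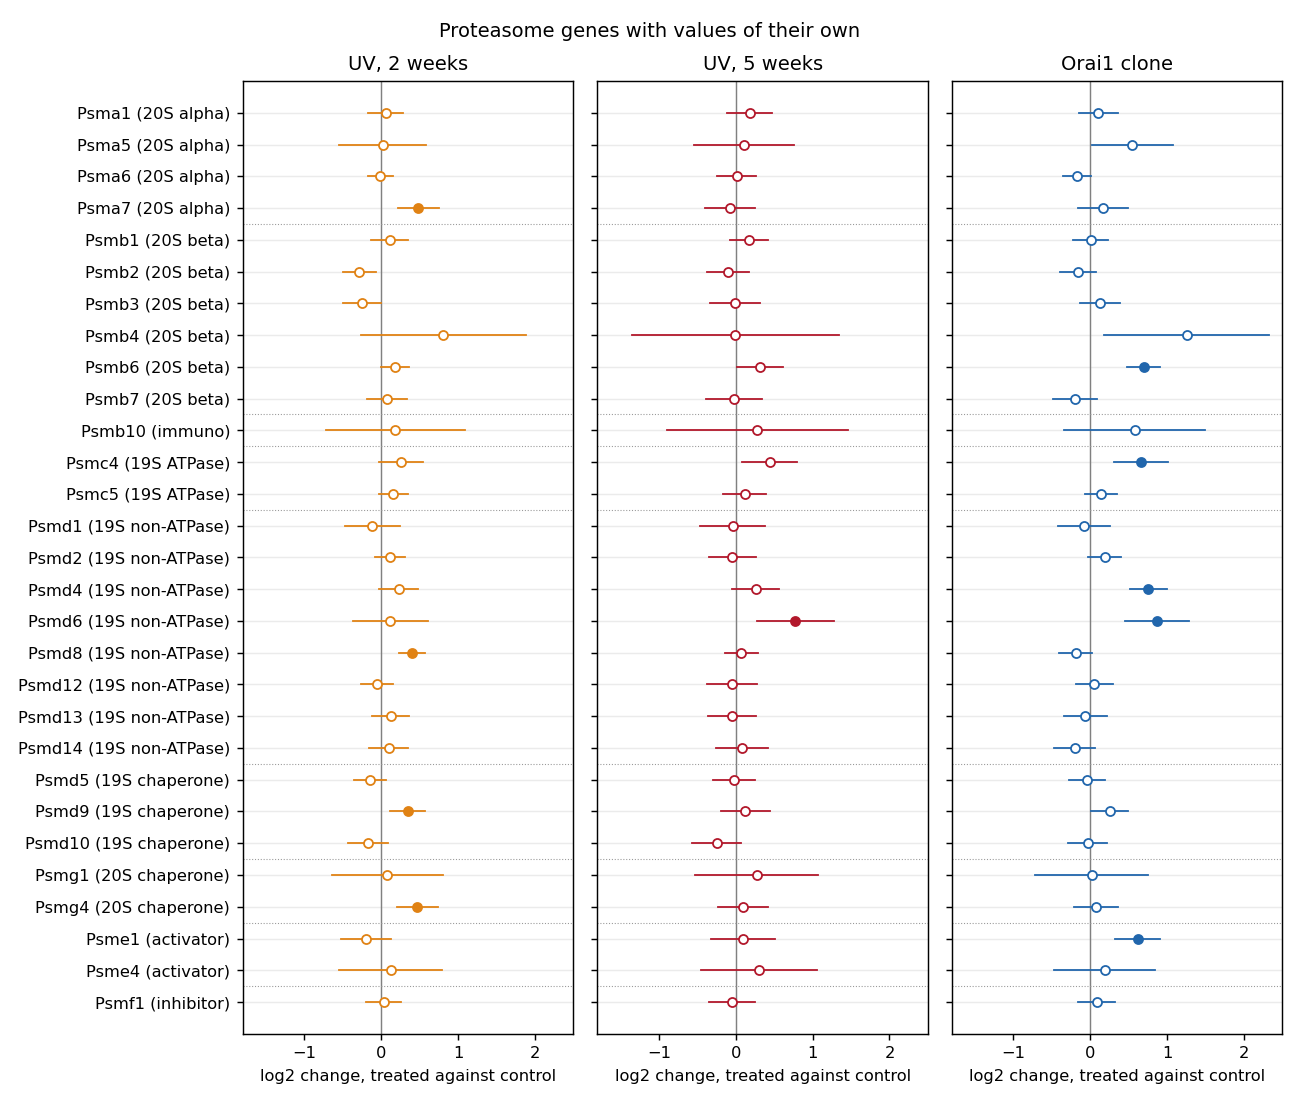
Log2 change against untreated B16N of the 29 proteasome genes with values of their own and an SE of at most 1 in all 3 tables, one panel per treated sample. Points are the authors' changes with the sign turned, lines are 95% intervals from the implied SE, filled points passed an adjusted p of 0.05, and dotted lines part the groups of subunits; 4 genes passed at 2 weeks, 1 at 5 weeks and 5 in the clone, all to the right of 0.

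Proteasome genes tended to have small SEs, which makes a call more likely. Among rows of SE at most 0.3 with values of their own, 4 of 25 proteasome genes were higher at 2 weeks (16%, beside 6.09% of all such rows). At 5 weeks 1 of 24 was higher (4.17%, beside 4.75%), and in the clone 5 of 25 (20%, beside 15.3%). Changes of the proteasome genes were more closely spaced than those of all rows under this SE limit. Their interquartile range was 0.23 at 2 weeks, 0.18 at 5 weeks and 0.32 in the clone, beside 0.37, 0.40 and 0.60 for all such rows. SEs below the limit were not matched, so the spacing was not compared at equal precision. In the clone the lowest of these 25 genes was Psmd14 at -0.20, while 5% of all such rows lay below -0.83.

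**Figure D2:**
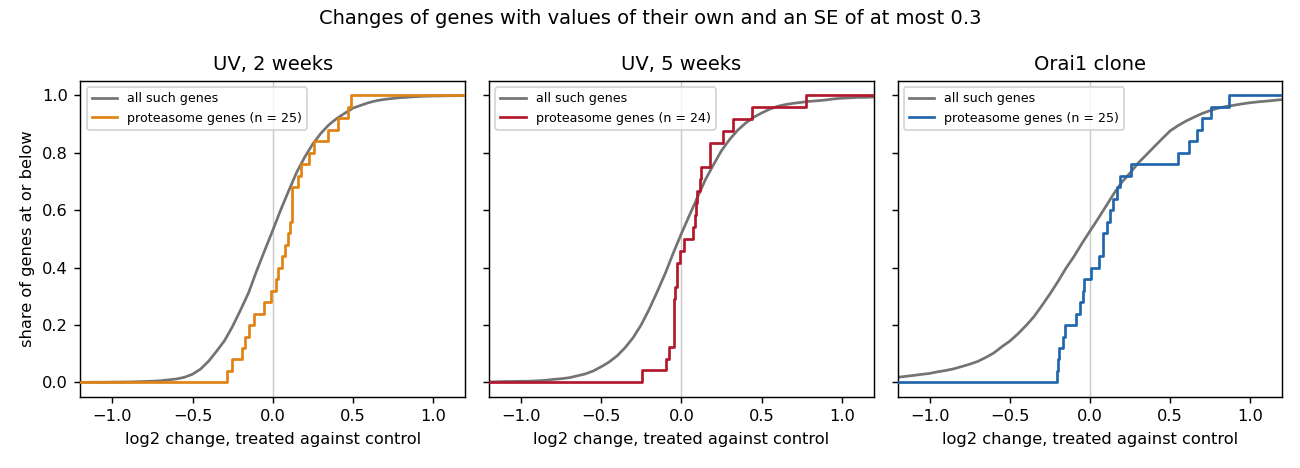
Cumulative share of genes (vertical axis) at or below a log2 change against untreated B16N (horizontal axis), for genes with values of their own and an SE of at most 0.3; coloured steps are proteasome genes (25, 24 and 25) and grey lines all such genes. The proteasome genes have few values far below 0, and in the clone a group of 5 above 0.6 forms the upper end of the steps.

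The alpha ring gates entry to the core. Psma7, one of its 7 subunit genes, stood at 0.49 (SE 0.14) at 2 weeks, -0.08 (SE 0.17) at 5 weeks and 0.17 (SE 0.17) in the clone in the authors' deposited tables. From the authors' p-values it passed at 2 weeks alone (1.40-fold, 95% interval 1.16 to 1.69, Benjamini-Hochberg adjusted p = 0.00921). Psma1, Psma5 and Psma6, structural subunits of the same ring, passed nowhere. In the authors' deposited tables Psma5 had the largest value of these, 0.55 in the clone (SE 0.27, adjusted p = 0.138), and Psma6 stood at -0.17 (SE 0.09) there. Psma1 lay between 0.06 and 0.18 in the 3 deposited tables.

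Among the beta subunits with values of their own, Psmb6, which encodes the caspase-like beta subunit that Psmb9 replaces in the immunoproteasome, stood at 0.17 (SE 0.09), 0.32 (SE 0.15) and 0.70 (SE 0.11) at 2 weeks, 5 weeks and in the clone in the authors' deposited tables. In the clone the authors' value amounts to 1.62-fold (95% interval 1.40 to 1.88, adjusted p = 6.78e-09). Psmb7, the trypsin-like subunit gene, stood at 0.08 (SE 0.13), -0.03 (SE 0.19) and -0.20 (SE 0.15) in the same order in the authors' deposited tables and passed nowhere. The clone thus had 2 catalytic core genes on opposite sides of 0, of which 1 passed. Psmb1 and Psmb3, non-catalytic subunits, lay between -0.25 and 0.18 in the 3 deposited tables. Psmb2, also non-catalytic, had its lowest value at 2 weeks, -0.29 (SE 0.11, adjusted p = 0.0904), by the authors' deposited table. Psmb4 had a wide error, with 0.81 (SE 0.55) at 2 weeks, 0.00 (SE 0.69) at 5 weeks and 1.25 (SE 0.55, adjusted p = 0.0879) in the clone in the authors' deposited tables, so a 2-fold change in this gene was not detectable at these errors.

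Of the immunoproteasome, Psmb10 could be followed, whose product replaces that of Psmb7. It stood at 0.18 (SE 0.46) at 2 weeks, 0.28 (SE 0.60) at 5 weeks and 0.58 (SE 0.47) in the clone in the authors' deposited tables, with adjusted p-values of 0.959, 0.965 and 0.484. All 3 values were above 0 and none passed. The 95% interval in the clone ran from 0.79-fold to 2.81-fold, so neither no change nor a doubling lay outside it. Psmb11, which encodes the thymus-specific beta subunit, shared its values with 14 to 450 other symbols and had an SE of 2.63 or more in the authors' deposited tables.

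Of the 19S ATPase genes, Psmc4 stood at 0.25 (SE 0.15), 0.44 (SE 0.18) and 0.67 (SE 0.18) at 2 weeks, 5 weeks and in the clone in the authors' deposited tables. By the authors' p-value it passed in the clone (1.59-fold, 95% interval 1.24 to 2.02, adjusted p = 0.00163), while the value at 5 weeks did not pass (adjusted p = 0.179). Psmc5 lay between 0.11 and 0.16 in the 3 deposited tables and passed nowhere. Psmc2 had an SE of 1.17 to 1.65 and gives no usable value.

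Of the 8 non-ATPase 19S genes with values of their own, Psmd4, Psmd6 and Psmd8 passed in at least 1 table. Psmd4 encodes a ubiquitin receptor of the particle. It stood at 0.23 (SE 0.13), 0.26 (SE 0.15) and 0.76 (SE 0.12) at 2 weeks, 5 weeks and in the clone in the authors' deposited tables, and passed in the clone (1.69-fold, 95% interval 1.43 to 2.00, adjusted p = 1.82e-08). Psmd6, a lid subunit gene, stood at 0.12 (SE 0.25), 0.78 (SE 0.25) and 0.87 (SE 0.21) in the same order in the authors' deposited tables. It was the single gene with values of its own to pass in 2 of the authors' tables: 1.71-fold at 5 weeks (95% interval 1.22 to 2.42, adjusted p = 0.0464) and 1.82-fold in the clone (95% interval 1.36 to 2.43, adjusted p = 4.69e-04). Both values were set against the same control sample. At an adjusted p of 0.01, Psmd6 no longer passed at 5 weeks, which left 0 genes there.

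Psmd8, a further lid subunit gene, had its highest value at 2 weeks. It stood at 0.41 (SE 0.09) at 2 weeks, 0.07 (SE 0.11) at 5 weeks and -0.19 (SE 0.11) in the clone in the authors' deposited tables. At 2 weeks the authors' value passed with the smallest adjusted p of the 4 genes higher then (1.32-fold, 95% interval 1.18 to 1.49, adjusted p = 1.64e-04). The remaining 19S genes with values of their own were Psmd1 and Psmd2, scaffolds of the base, Psmd12 and Psmd13 of the lid, and Psmd14, which encodes the deubiquitinase that strips the ubiquitin chain from substrates. None of these 5 passed in any table, and their 15 values lay between -0.20 (Psmd14 in the clone) and 0.19 (Psmd2 in the clone) in the authors' deposited tables. In the clone, lid genes stood at 0.87 (Psmd6, which passed) and at -0.19 (Psmd8, which did not, adjusted p = 0.247 by the authors' p-value). Psmd6 and Psmd8 were not tested against each other.

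Assembly chaperones bring the particles together and leave the finished complex. Psmd9, a chaperone of the 19S base, stood at 0.34 (SE 0.12), 0.12 (SE 0.16) and 0.25 (SE 0.12) at 2 weeks, 5 weeks and in the clone in the authors' deposited tables. By the authors' p-value it passed narrowly at 2 weeks (1.27-fold, adjusted p = 0.0491). The other base chaperone genes, Psmd5 and Psmd10, lay between -0.25 and -0.02 in the 3 deposited tables and passed nowhere. Psmg4, which encodes a chaperone of alpha ring assembly, stood at 0.47 (SE 0.14), 0.10 (SE 0.16) and 0.08 (SE 0.15) in the authors' deposited tables and passed at 2 weeks (1.39-fold, 95% interval 1.15 to 1.67, adjusted p = 0.0124). Psmg1, another core chaperone gene, had an SE of 0.37 to 0.41 and passed nowhere. At an adjusted p of 0.01 neither Psmd9 nor Psmg4 passed, which left Psma7 and Psmd8 at 2 weeks.

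Among activators, Psme1, a subunit gene of the PA28 ring, stood at -0.19 (SE 0.17) at 2 weeks, 0.09 (SE 0.21) at 5 weeks and 0.62 (SE 0.15) in the clone in the authors' deposited tables. The authors' value passed in the clone (1.53-fold, 95% interval 1.25 to 1.88, adjusted p = 3.96e-04). Psme2, its partner in the ring, had an SE of 1.62 or more in each of the authors' tables, and its value in the clone was above 0 without passing (adjusted p = 0.183). Psme4, the PA200 activator gene, lay between 0.13 and 0.30 (SE 0.33 to 0.39) in the 3 deposited tables. Psmf1, whose product inhibits the core in vitro, lay between -0.05 and 0.08 in the 3 deposited tables, and neither gene passed anywhere.

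The changes of the treated samples were then compared with one another, gene by gene, by a normal test of their difference. The value of the common control cancels in that difference, but its spread was counted in both SEs, which makes a call less likely. Between 5 and 2 weeks of UV, 0 of 30 proteasome genes differed by an adjusted p of 0.05, where 3.75% of all genes tested did. Genes with shared values were left out of these tests. Psma7 and Psmd8 had an unadjusted p under 0.05, both lower at 5 weeks. For Psma7 the difference of the authors' values was -0.56 (SE 0.22, 95% interval -0.99 to -0.14, adjusted p = 0.147). For Psmd8 the authors' values differed by -0.33 (SE 0.14, 95% interval -0.60 to -0.06, adjusted p = 0.220). Passing at one time and not at the other was thus not shown to be a difference between times.

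Between the clone and 2 weeks of UV, 4 of 30 proteasome genes differed, 3 higher and 1 lower in the clone. That is 13.3%, beside 13.2% of all genes. By the authors' values Psme1 was higher in the clone by 0.81 on the log2 scale (SE 0.22, 95% interval 0.37 to 1.25, adjusted p = 0.00408). On the same scale the authors' values of Psmd4 were higher by 0.53 (SE 0.18, adjusted p = 0.0250) and those of Psmb6 by 0.52 (SE 0.14, adjusted p = 0.00407). The authors' values of Psmd8 had a difference of -0.60 (SE 0.14, 95% interval -0.87 to -0.32, adjusted p = 4.34e-04), with a value above 0 at 2 weeks and one below 0 in the clone. The difference of the authors' values was 0.75 for Psmd6 (SE 0.33, adjusted p = 0.128) and 0.41 for Psmc4 (SE 0.23, adjusted p = 0.294), and neither passed.

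Between the clone and 5 weeks of UV, 0 of 30 proteasome genes differed, where 6.18% of all genes did. At an unadjusted p under 0.05 the authors' values differed for 3 genes, Psmd4 (0.50, SE 0.20, adjusted p = 0.140), Psme1 (0.53, SE 0.26) and Psmb6 (0.38, SE 0.19), all higher in the clone. For Psmd6 the difference was 0.09 (SE 0.33) with a 95% interval of -0.56 to 0.74, which leaves room for a difference of over 1.5-fold. For Psmb10 the 3 differences lay between 0.10 and 0.39 with SEs of 0.65 to 0.76, so a 2-fold difference in this immunoproteasome gene was not detectable.

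**Figure D3:**
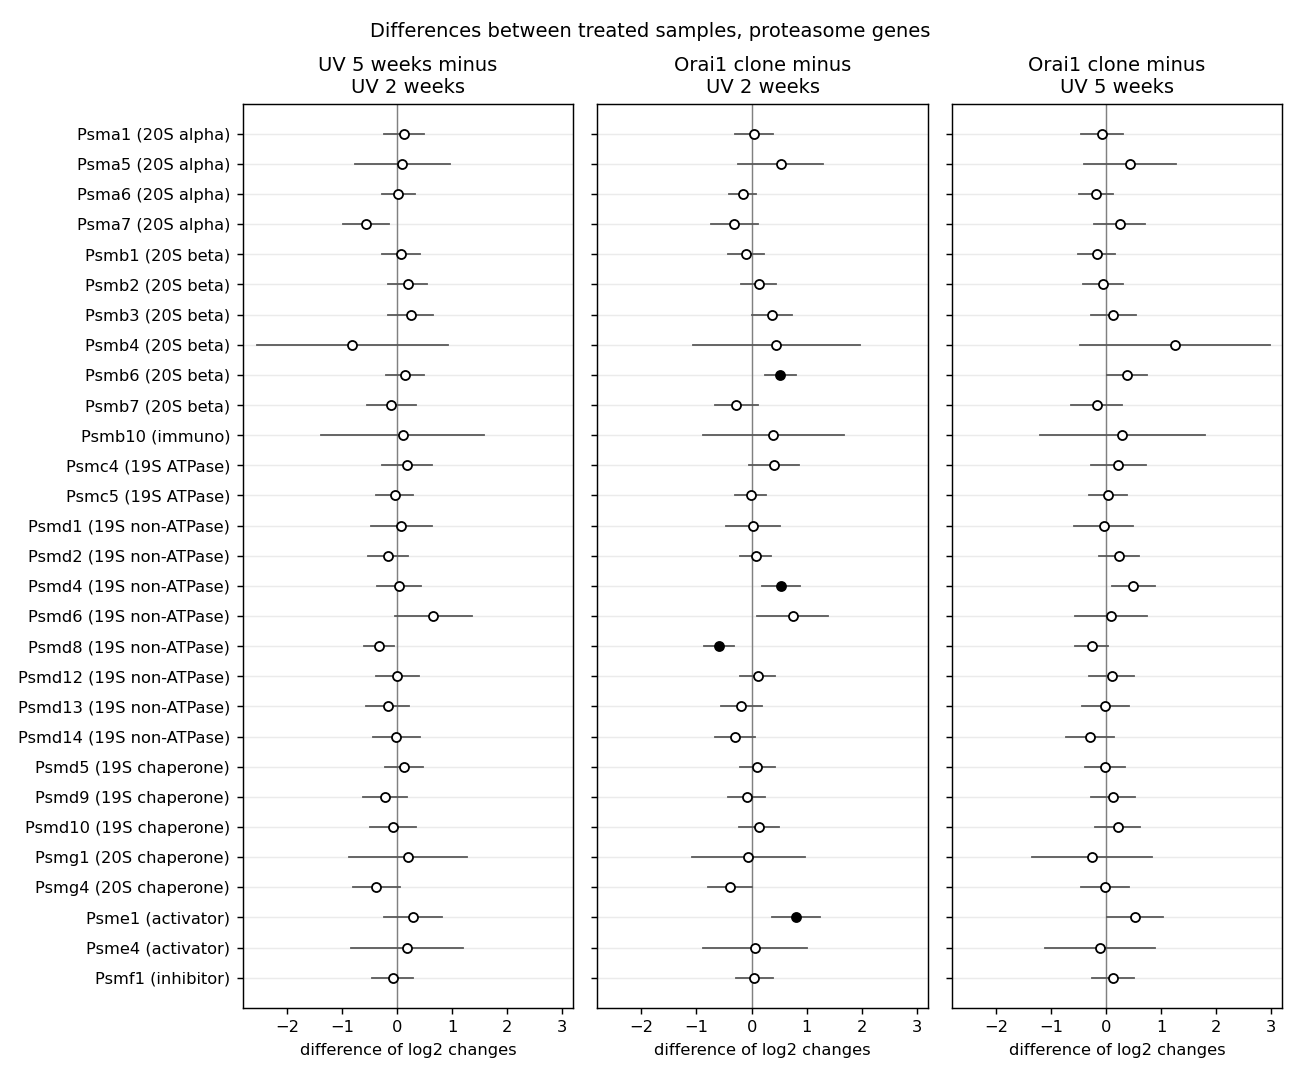
Difference of log2 changes between treated samples for the 29 proteasome genes of SE at most 1, one panel per pair of samples. Points are differences, lines are 95% intervals and filled points passed an adjusted p of 0.05; the filled points are Psmb6, Psmd4, Psme1 (right of 0) and Psmd8 (left of 0), all in the panel of the clone against 2 weeks.

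The 14 genes with shared values fall into 2 kinds. For 11 of them, one same partner symbol carried identical values in all 3 tables, and the tables do not tell on which of the 2 genes the value was measured. The other 3 (Psmb11, Psmd7 and Psme2) shared theirs with 6 to 450 symbols where shared, and had SEs above 1. Psmd7, a lid subunit gene, had an SE of 3.36 or more in every table and gives no usable value.

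Of the 11 pairs, that of Psmd11 and Mapkapk5 had the largest change. Psmd11 encodes a lid subunit that helps to hold the 19S particle to the core, and Mapkapk5 a protein kinase. Their value was 0.08 (SE 0.15) at 2 weeks, 0.56 (SE 0.18) at 5 weeks and 1.31 (SE 0.13) in the clone in the authors' deposited tables. By the authors' p-values it passed at 5 weeks (1.48-fold, adjusted p = 0.0421) and in the clone (2.48-fold, adjusted p = 1.21e-20), and would be the largest change of a proteasome gene of SE under 1 in the clone if it belongs to Psmd11. With shared values counted, the authors' value for the pair also differed between the clone and each UV sample, by 1.23 (SE 0.20) from 2 weeks and by 0.75 (SE 0.22, adjusted p = 0.0211) from 5 weeks.

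The value listed for Psmg3, a chaperone gene of alpha ring assembly, and for the membrane flippase gene Atp8a1 was -0.24 (SE 0.30) at 2 weeks, 1.17 (SE 0.31) at 5 weeks and 0.78 (SE 0.25) in the clone in the authors' deposited tables. The authors' value passed at 5 weeks (2.25-fold, adjusted p = 0.00653) and in the clone (adjusted p = 0.0124), and the 5-week value was higher than the 2-week value by 1.42 (SE 0.43, adjusted p = 0.0340). The value listed for the 19S ATPase gene Psmc6 and for Pafah1b1, a regulator of the motor dynein, fell at 2 weeks (-0.47, SE 0.09, adjusted p = 6.25e-06) and in the clone (-0.35, SE 0.10, adjusted p = 0.00305) and stood at -0.04 (SE 0.12) at 5 weeks in the authors' deposited tables. It was the single value listed for a subunit gene that fell.

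In the clone, 3 more such values passed, all higher. The value of the chymotrypsin-like core gene Psmb5, shared with the RNA-binding protein gene Larp4, was 0.32 (SE 0.12), 0.37 (SE 0.15) and 0.49 (SE 0.14, adjusted p = 0.00506) at 2 weeks, 5 weeks and in the clone in the authors' deposited tables. The authors' value of the alpha ring gene Psma2, shared with Rnase10, was 0.18 (SE 0.09), 0.20 (SE 0.13) and 0.44 (SE 0.11, adjusted p = 4.95e-04). The authors' value of Psme3, the PA28 gamma gene, shared with Gm94, was -0.12 (SE 0.10), -0.01 (SE 0.14) and 0.33 (SE 0.11, adjusted p = 0.0127). With shared values counted, 10 of 43 symbols of proteasome genes were higher in the clone (23.3%, beside 10.3% of all rows) and 1 was lower. Of these 10, 5 had values of their own. Here and at the UV times, a shared value may belong to the partner symbol. At 5 weeks 3 of 43 were higher (6.98%, beside 3.07%), and at 2 weeks 4 of 43 (9.30%, beside 3.13%) with 1 lower. No SE limit was set on these shares of all rows. Small SEs make a call more likely, so the shares do not compare like with like. The pairs of Psma3 (with Samd4), Psmc1 (with Ptx4), Psmc3 (with Hpn) and Psmg2 (with Tmem203) passed nowhere. Psmc3 and Hpn had the smallest errors of these, with values from -0.13 to 0.02 in the authors' deposited tables.

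**Figure D4:**
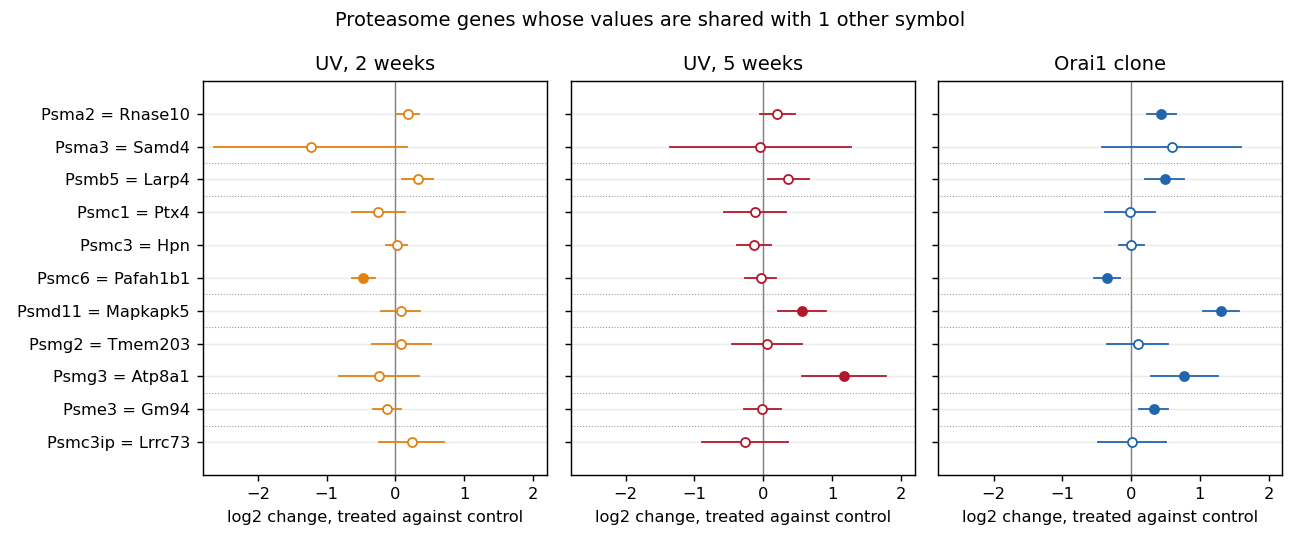
Log2 change against untreated B16N of the 11 symbols matching the pattern whose values are identical to those of 1 other symbol in all 3 tables, each row naming both. Points, 95% intervals and fills are as for the genes with values of their own; the pair of Psmd11 and Mapkapk5 reaches 1.31 in the clone and that of Psmc6 and Pafah1b1 lies below 0 at 2 weeks and in the clone.

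Of the symbols that fit the pattern without encoding a subunit, Psme3ip1 stood at -0.01 (SE 0.10), -0.17 (SE 0.13) and -0.79 (SE 0.11) at 2 weeks, 5 weeks and in the clone in the authors' deposited tables. By the authors' p-value it fell in the clone to 0.58-fold (adjusted p = 2.84e-11), where Psme1 and the value listed for Psme3 were higher. By the authors' values it was also lower in the clone than at 2 weeks (difference -0.78, SE 0.15) and at 5 weeks (-0.63, SE 0.17, adjusted p = 0.00798). Psmc3ip, whose values it shared with Lrrc73, passed nowhere.

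Other genes of the pathway, from lists drawn up with earlier results of these data known, moved in both directions. Of 10 subunits and proteasome-bound factors with other symbols, 1 fell at 2 weeks, 1 rose at 5 weeks, and 1 rose and 2 fell in the clone. These counts, and those of the lists that follow, stand beside 3.71% of rows higher and 5.28% lower at 2 weeks, 3.53% and 1.98% at 5 weeks, and 12.0% and 13.9% in the clone. In the clone, 1 and 2 of 10 are near that background. Usp14, a deubiquitinase bound to the 19S particle, fell at 2 weeks (-0.27, SE 0.09, adjusted p = 0.0244) and in the clone (-0.30, SE 0.10, adjusted p = 0.0134) in the authors' deposited tables. With the changes centred on the median of precise rows, the authors' value at 2 weeks no longer passed (-0.25, adjusted p = 0.0506). By the authors' values, Uchl5, the other such deubiquitinase, rose in the clone (0.48, SE 0.18, adjusted p = 0.0346) and Txnl1, a thioredoxin-like protein gene of the 19S particle, fell there (-1.07, adjusted p = 3.41e-10). Zfand2a, an arsenite-inducible proteasome-binding factor, rose in the authors' 5-week table (0.53, SE 0.16, adjusted p = 0.0197). The ubiquitin receptor gene Adrm1 and the core maturation factor gene Pomp passed in none of the 3.

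Of 6 genes of proteasome transcription control, 1 fell at 2 weeks, 0 passed at 5 weeks and 2 fell in the clone, where 13.9% of all rows fell. Nfe2l1 fell at 2 weeks (-0.43, SE 0.07, adjusted p = 6.87e-07) and stood at 0.19 (SE 0.13) at 5 weeks and 0.02 (SE 0.09) in the clone in the authors' deposited tables. Nfe2l2, which encodes the oxidative stress factor NRF2, fell in the clone (-0.64, SE 0.09, adjusted p = 1.31e-11), as did Nfyc, a subunit gene of the CCAAT-binding factor NF-Y (-0.37, SE 0.13, adjusted p = 0.0227), both by the authors' values. Any link between the values of these regulators and those of the proteasome genes was not tested.

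Among genes of ubiquitin itself, the polyubiquitin gene Ubb rose in the clone (0.36, SE 0.10, adjusted p = 0.00293) by the authors' values. Of 8 shuttle and p97 factors, which deliver or extract ubiquitinated substrates, Nploc4 fell at 2 weeks (-0.40, SE 0.08, adjusted p = 1.46e-05) and Ubqln1 in the clone (-0.31, SE 0.10, adjusted p = 0.00882) in the authors' deposited tables. Ubqln2 rose at 5 weeks, with an SE above 1 (adjusted p = 1.79e-06), and in the clone (2.53, SE 0.63, adjusted p = 5.18e-04) in the authors' deposited tables.

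Of 8 antigen presentation and interferon genes that act beside the immunoproteasome, 1 rose at 2 weeks, 0 passed at 5 weeks and 1 rose in the clone. The share in the clone, 12.5%, is that of the background, 12.0%. H2-D1, a class I heavy chain gene, rose at 2 weeks (0.73, SE 0.21, adjusted p = 0.0101) and stood at 0.74 (SE 0.30) at 5 weeks and 0.48 (SE 0.22) in the clone, without passing, in the authors' deposited tables. Tap1, which encodes a subunit of the peptide transporter, rose in the clone by the authors' values (2.62, SE 0.91, adjusted p = 0.0219), where Psme1 was higher as well. H2-K1, a further class I heavy chain gene, stood on the other side there, at -3.41 (SE 1.71), without passing (adjusted p = 0.157) in the authors' deposited table. By the authors' values H2-K1 was above 0 at 2 weeks and stood at 2.51 at 5 weeks, and it passed at neither time. Irf1, whose product drives interferon-induced genes, stood at -0.04 (SE 0.29) in the clone in the authors' deposited table and did not pass.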

How the data were processed

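The authors deposited, for each treated B16N sample, a table of log2 fold changes, a test statistic (a score) and unadjusted p-values per gene symbol, per the file headers. The submitters' processing notes name the build GRCm38. Aligner, counting and test: not given in the sources used here. Deposited log2 values were read as having the control in the numerator: all 1357 symbols with a row in a single table were negative. No header states the direction; it was judged from these rows and the sign was turned. The deposited p-value equalled the two-sided normal p of the statistic (largest gap 5.00e-08), so change divided by statistic gave the SE. Rows without a symbol (1 per table) or p-value (3, clone) were left out, leaving 14648, 14821 and 15041 genes, over which p-values were Benjamini-Hochberg adjusted. Differences between treated samples were tested by a normal test with both squared SEs added, which counts the control's spread in both, over 10166, 10218 and 10278 genes with values of their own. The 95% intervals come from these SEs, and with depth unknown they show no replicate spread. Levels were assumed possible in the design; none were found, so that alternative was not run. The members and lists were chosen with earlier results of these data known. All members could be named, those passing or in the immunoproteasome and PA28 groups in full; other genes were named where they passed, at most 4 per list, and Adrm1, Pomp, Irf1, H2-K1, Tyr and Lyz2 were added after their values were seen. Some pathway genes are not reported here. The procedure was tested on simulated data. These drew each comparison independently, with no common control and no shared values, so the tests were not checked under either. Alternatives were fold minimums of 1.5 and 2, an adjusted p of 0.01, SE limits, shared values counted, centring, and core subunits alone. Python 3.11.15, numpy 2.4.6, pandas 2.3.3, scipy 1.17.1 and matplotlib 3.10.9 were used.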

Additional observations from a re-analysis of the deposited data

How the results depend on the processing

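Counts of proteasome genes that were higher depended on the call rule and on shared values. With a minimum of 1.5-fold, 0 remained at 2 weeks. With a minimum of 2-fold, 0 remained at 2 weeks, 0 at 5 weeks and 0 in the clone. At an adjusted p of 0.01, 2 passed at 2 weeks and 0 at 5 weeks. With 20S and 19S subunits alone, 2 passed at 2 weeks. With shared values counted, 3 were higher at 5 weeks and 10 in the clone, 1 was lower at 2 weeks and 1 in the clone, 1 differed between 5 and 2 weeks and 1 between the clone and 5 weeks. Adjustment over rows of SE at most 0.5, a restriction to SE at most 0.3 (chosen after seeing the data) where run, and centring on the median of precise rows (-0.02, -0.01 and -0.02) left each count of higher, lower or differing genes as it was. Of the 65 changes and differences of single genes recomputed, 17 no longer passed at an adjusted p of 0.01, 1 no longer passed with centring (Usp14 at 2 weeks, -0.25), and 0 of the 56 within an SE of 0.5 were lost under that limit. No paired analysis was possible because each group holds 1 sample, so leaving out a sample was not an option either. The tables hold no counts, so the limits of depth are known only through the SEs.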
